A study of Mus musculus with 6 samples.

Results

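Enzymes that make serine or break down serine, glycine and threonine were followed in the livers of mice that lack LKB1, a kinase encoded by Stk11, and of wild-type (WT) mice. The set holds 10 genes of the 55450 in the deposited table, taken by their symbols: Phgdh, Psat1 and Psph of serine synthesis, Shmt1 and Shmt2, which interconvert serine and glycine, and Sds, Sdsl, Gldc, Amt and Tdh of breakdown. The knockout group was 3 LKB1 fl/fl mice, whose Stk11 alleles are flanked by loxP sites, and the control group was 3 WT mice. Both groups were of strain C57BL/J as labelled, received AAV8 Cre at 6 weeks of age and were 10 weeks old when the left liver lobe was taken 4 weeks later. AAV8 is a viral serotype used to reach hepatocytes, and Cre removes DNA between loxP sites. WT mice thus received Cre as well. The promoter that drives Cre is not given in the sources used here. Poly(A) RNA was sequenced with 1 library per mouse.

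Serine is made from the glycolytic intermediate 3-phosphoglycerate by an oxidation, a transamination and a dephosphorylation, which PHGDH, PSAT1 and PSPH carry out in turn. Liver also takes serine and threonine apart for glucose production, because serine dehydratase turns serine directly into pyruvate, and it is the main site of the mitochondrial glycine cleavage system, which releases carbon dioxide and ammonia and passes a one-carbon unit to folate. Sds is known as a gene of the periportal zone of the liver lobule that responds to glucagon, glucocorticoids and dietary protein.

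Total counts ran from 47659122 to 56147667 per library. Stk11 had 22.2, 14.4 and 11.4 CPM (counts scaled to a common library total by the TMM method) in knockout 1 to 3 and 66.1, 64.2 and 69.7 CPM in WT 1 to 3, so its level followed the labels. Xist reached 42472 counts in knockout 1 and 29243 in WT 1, where Y-linked genes had at most 6 counts, whereas the other 4 libraries held at least 6146 Y-linked and at most 16 Xist counts. The labels do not give this state, so values are also given for the 4 libraries with Y-linked counts (2 against 2) and for the pair with Xist counts (1 against 1, no test). Hepatocyte markers were abundant, summing over 6 genes to between 23300 and 66400 CPM in knockout and between 73300 and 114000 CPM in WT, but they did not move as one. Alb, Apoa1 and Ttr lay below WT in every knockout library and Tat, Cps1 and Hnf4a above, and of the 6 Tat alone passed the threshold (edgeR adjusted p = 0.0344). Endothelial markers summed to 67.2 to 112 CPM in knockout livers, below the 135 to 185 CPM of WT, and 0 of these 6 passed the threshold. Kupffer and other myeloid markers summed to 72.6 to 155 against 99 to 131 CPM, stellate markers to 94.7 to 201 against 158 to 342 CPM and bile duct markers to 24.8 to 74.2 against 39.5 to 72.7 CPM. All 6 lymphocyte markers were under 1 CPM in all libraries, and 2 of 4 kidney and 2 of 3 pancreas markers had 0 counts throughout. The remaining pancreas marker, Cela1, had 6.49, 18 and 18.3 CPM in WT and 6.18, 3.26 and 3.63 CPM in knockout (edgeR adjusted p = 0.0767). Of the remaining kidney markers Lrp2 reached 1.62 CPM and Slc34a1 at most 0.0579 CPM. The part of these shifts in the results below was not tested, and in whole tissue fewer cells of a type and less RNA per cell cannot be told apart.

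The members that passed the threshold were the 2 serine dehydratase genes, Sds and Sdsl. Of the 10 members 9 passed the filter on low counts, and 2 of these passed the threshold of 0.05 for edgeR's Benjamini-Hochberg adjusted p, both as higher in knockout and 0 as lower. Over all 14539 genes tested 3.37% were called, 2.15% as higher and 1.22% as lower. The 3 knockout libraries lay above the 3 WT libraries for 6 members (Phgdh, Psat1, Shmt1, Sds, Sdsl and Gldc), below them for 1 (Shmt2), and overlapped for Psph and Amt. Over all tested genes 16.9% lay above and 15.5% below. The median log2 fold change was 1.14 over the 9 members and 0.0103 over all tested genes. Phgdh passed the filter through its knockout libraries alone, with 0 of 3 WT libraries at the required level, and the median of the other 8 was 1.09.

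**Figure D1:**
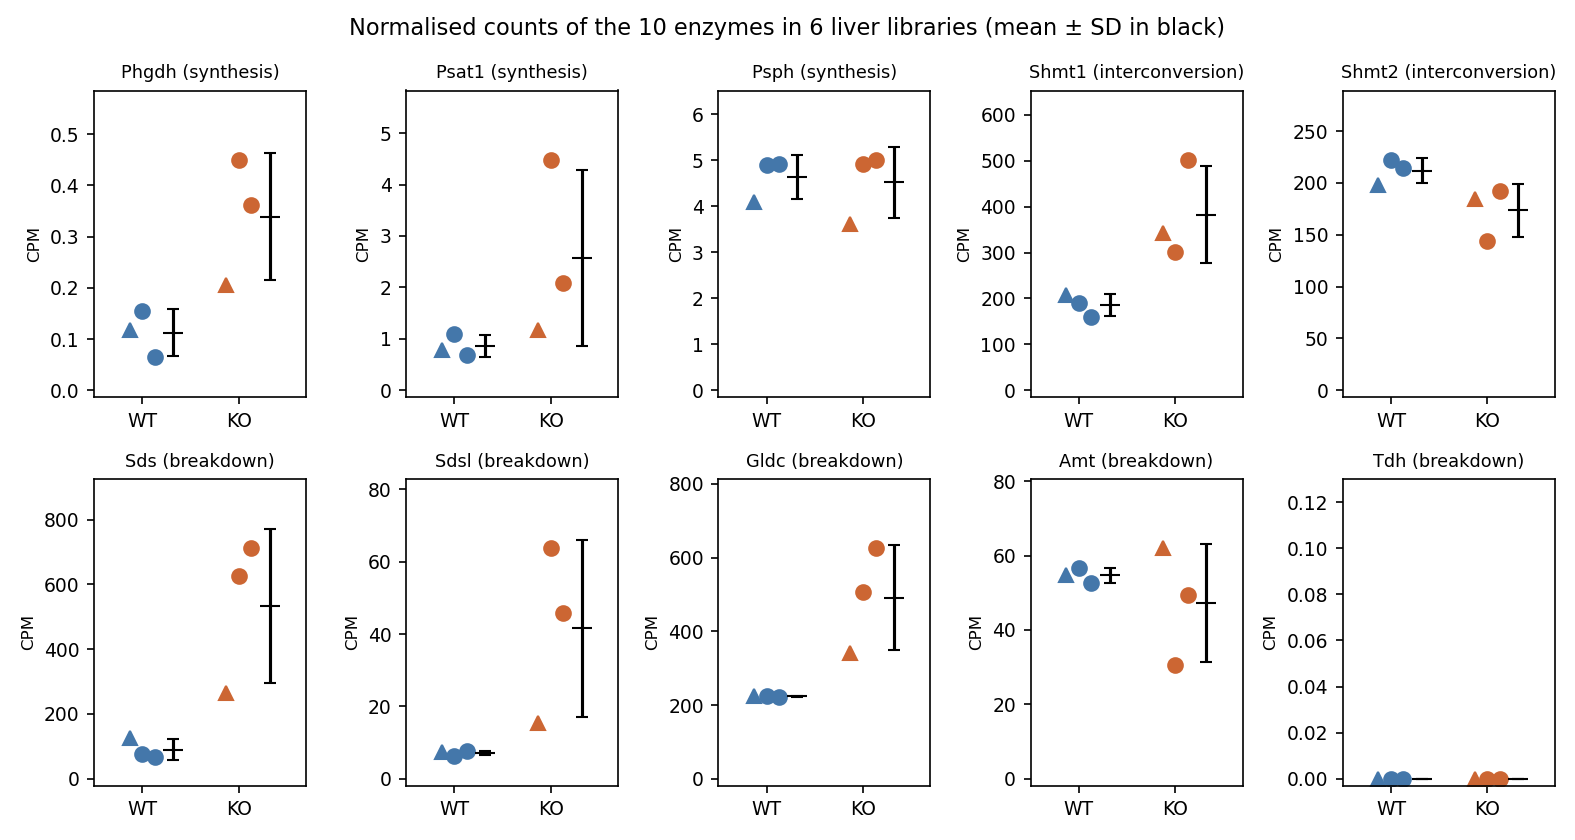
Normalised counts (CPM) of each of the 10 enzymes in WT (blue) and knockout (KO, orange) liver. Each point is 1 library, triangles are replicate 1 of each group (the libraries with Xist counts), and black bars are the mean ± SD of 3 libraries. Knockout lies above WT without overlap for Phgdh, Psat1, Shmt1, Sds, Sdsl and Gldc and below it for Shmt2. Over all tested genes 16.9% lie above and 15.5% below. Knockout 1 is the lowest knockout library for Sds, Sdsl and Gldc (264, 15.3 and 342 CPM) and also for Phgdh, Psat1 and Psph. Tdh is at 0 throughout.

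Sds encodes serine dehydratase, which deaminates serine to pyruvate and threonine to 2-oxobutyrate. Its gene lies on chromosome 5 (ENSMUSG00000029597.14, GRCm38 120476526 to 120483932, plus strand). Sds stood at 126, 76.0 and 67.0 CPM in WT 1 to 3 and at 264, 627 and 712 CPM in knockout 1 to 3. The groups did not overlap, and knockout 1 was the lowest of its group. The means were 89.8 ± 32 CPM in WT and 534 ± 238 CPM in knockout (SD, n = 3 each), a ratio of 5.95. Sds rose by 2.57 ± 0.436 on the log2 scale (SE, 95% interval 1.54 to 3.60; edgeR adjusted p = 0.0346).

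Sdsl encodes a serine dehydratase-like enzyme of the same family with lower activity. It is the neighbour of Sds on chromosome 5 (ENSMUSG00000029596.13, 120458186 to 120472810, minus strand), with 3715 bases and 0 annotated genes between them. Sdsl had 7.45, 6.40 and 7.57 CPM in WT and 15.3, 63.7 and 45.8 CPM in knockout. The WT values lay close together, the knockout values were widely spread, and knockout 1 was again the lowest of its group. The means were 7.14 ± 0.642 and 41.6 ± 24.5 CPM (SD, n = 3), and Sdsl rose by 2.54 ± 0.481 on the log2 scale (SE, 95% interval 1.40 to 3.68; edgeR adjusted p = 0.0446).

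The 2 dehydratases had similar fold changes at very different levels. Per kilobase of exon Sds stood at 53.0 and Sdsl at 4.77 CPM in WT, and at 315 and 27.8 CPM in knockout. The log2 ratio of Sds to Sdsl counts was 3.59 ± 0.469 in WT and 3.79 ± 0.431 in knockout (SD, n = 3), a difference of 0.195 ± 0.368 (SE) with p = 0.6 in an exact two-sided permutation test. The counts of both genes were whole numbers in all 6 libraries, so no sign of reads divided between them was seen. Sds shares 360 exon bases with Plbd2 on the opposite strand (35.2 to 45.8 CPM in knockout, 56.3 to 62.4 in WT) and 141 with the antisense gene Gm15690, which had at most 1 count. Whether the counting used strand is not given in the sources used here.

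Both calls were lost when any single library other than knockout 1 was left out. Without knockout 1 the adjusted p-values were 0.00236 for Sds and 0.000623 for Sdsl, and without knockout 2, knockout 3, WT 1, WT 2 or WT 3 they ranged from 0.0536 to 0.187 for Sds and from 0.103 to 0.211 for Sdsl. The log2 fold change stayed between 2.31 and 2.90 for Sds and between 2.10 and 2.93 for Sdsl in these 6 refits. With limma voom the adjusted p-value was 0.034 for Sds and 0.0733 for Sdsl.

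Among the 4 libraries that carry Y-linked counts the log2 fold change was 3.22 ± 0.176 (SE) for Sds and 2.97 ± 0.2 for Sdsl (edgeR adjusted p = 0.00051 and 0.000799). There 33.3% of all tested genes were called. In the pair with Xist counts the log2 ratio was 1.06 for Sds and 1.03 for Sdsl. An interaction of group with Xist state in edgeR had adjusted p-values of 0.0234 for Sds and 0.0493 for Sdsl. Its spread comes wholly from the other 4 libraries, since the pair has 1 library a group, so it assumes that the pair varies like them and does not tell Xist state from the 2 mice. The WT library of that pair was also the highest WT library for Sds.

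**Figure D2:**
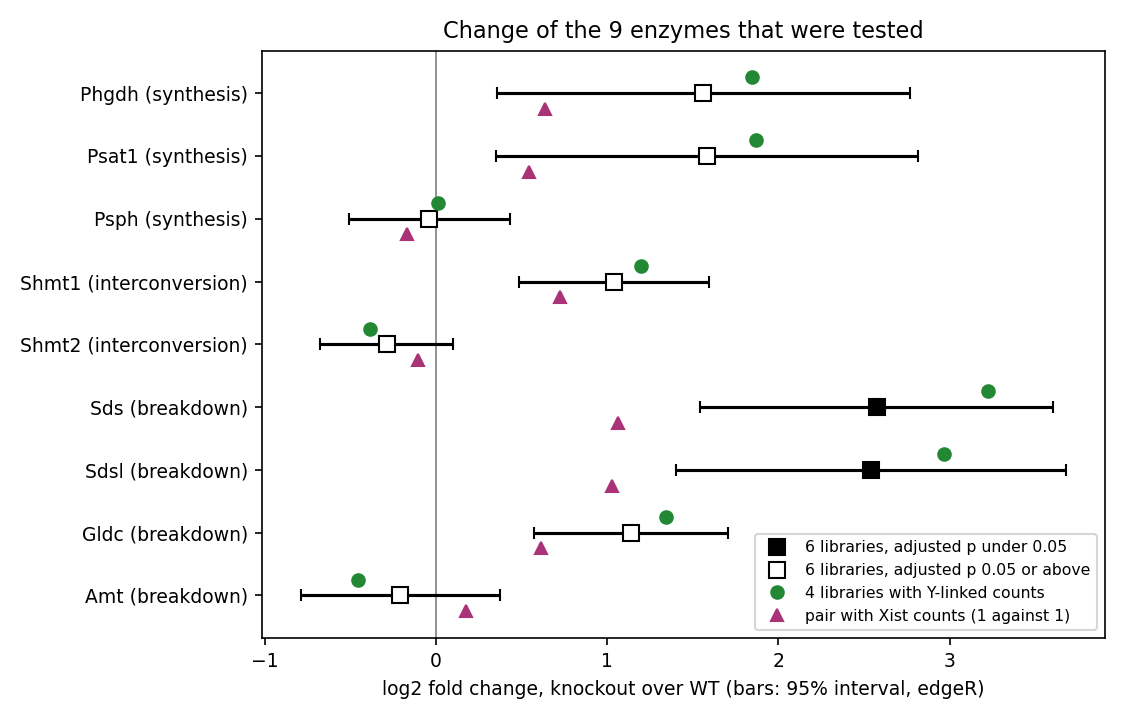
Log2 fold change, knockout over WT, of the 9 enzymes that passed the filter. Squares are the estimate from 6 libraries with its 95% interval (filled where the edgeR adjusted p-value was under 0.05), green points the estimate from the 4 libraries with Y-linked counts and purple triangles the log2 ratio of the pair with Xist counts. Sds and Sdsl lie farthest right, at 2.57 and 2.54, and their green and purple marks are the farthest apart.

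The number of members called varied with the fit, as did the share of all genes. An unadjusted p under 0.05 was reached by 6 of the 9 tested members and by 26.3% of all tested genes. The Y-linked count libraries called 6 members (Phgdh, Psat1, Shmt1, Sds, Sdsl and Gldc) and 33.3% of all genes, and the 5 libraries without knockout 1 called the same 6 and 30.2%. Without any one of the others 0 members passed in edgeR, where 0.578% of genes passed without knockout 2, 0.233% without knockout 3, 1.75% without WT 1, 0.0401% without WT 2 and 0.133% without WT 3. Xist state as a term gave 3 members, Gldc beside the dehydratases, at 10.3% of genes. DESeq2 called 5 members and 9.5% of genes, limma voom 1 and 2.97%. Scaling by library size alone called 4 and 3.51%, no filter 4 and 3.25%, and a minimum mean of 1 CPM 2 and 3.63%. With the replicate number as a block edgeR called 0 members (6 at an unadjusted p under 0.05) and 0.722% of genes.

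The glycine cleavage system needs 4 proteins, of which Gldc, the glycine decarboxylase (P protein), and Amt, the aminomethyltransferase (T protein), are members. Gldc (ENSMUSG00000024827.10, chromosome 19, 30098447 to 30175429, minus strand) had 224, 224 and 221 CPM in WT and 342, 507 and 626 CPM in knockout. Its WT values were almost identical, and every knockout library lay above them. The means were 223 ± 1.54 and 492 ± 142 CPM (SD, n = 3). The log2 fold change of 1.14 ± 0.239 (SE, 95% interval 0.57 to 1.71) had an edgeR adjusted p-value of 0.0541 over 6 libraries, just outside the threshold. It was 0.00262 without knockout 1, 0.00474 among the Y-linked count libraries and 0.0365 with Xist state as a term, and at least 0.122 without any other single library. The log2 ratio of the pair with Xist counts was 0.61.

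Amt (ENSMUSG00000032607.12, chromosome 9, 108296853 to 108302302, plus strand), which works on the same glycine molecule after Gldc, had 54.9, 56.5 and 52.6 CPM in WT and 62.0, 30.6 and 49.4 CPM in knockout. Knockout 1 lay above and knockout 2 and 3 below all WT libraries. The log2 fold change was -0.21 ± 0.245 (SE, 95% interval -0.79 to 0.37; edgeR adjusted p = 0.616), and it was 0.035 without knockout 2. The log2 ratio of Gldc to Amt was 2.03 ± 0.0437 in WT and 3.39 ± 0.827 in knockout (SD, n = 3), with no overlap. That difference of 1.36 ± 0.478 (SE) had p = 0.1 in an exact two-sided permutation test, the smallest that 3 against 3 allows, and 0.133 adjusted over the 4 ratios compared. Of the other 2 proteins of the system, Gcsh (H protein) stood at 89.4 ± 3.19 CPM in WT and 63.0 ± 16.2 in knockout (log2 fold change -0.50, edgeR adjusted p = 0.169), and Dld (the L protein, shared with pyruvate dehydrogenase) at 143 ± 13 and 212 ± 54.8 CPM (0.57, adjusted p = 0.164).

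SHMT enzymes move a carbon unit between serine and tetrahydrofolate and so link serine to glycine, SHMT1 in the cytosol and SHMT2 in mitochondria. Shmt1 (ENSMUSG00000020534.14, chromosome 11, 60788104 to 60811718, minus strand) had 207, 190 and 161 CPM in WT and 342, 302 and 502 CPM in knockout. Every knockout library lay above every WT library. WT averaged 186 ± 23.6 CPM and knockout 382 ± 106 CPM (SD, n = 3). Shmt1 thus differed by 1.04 ± 0.234 on the log2 scale (SE, 95% interval 0.49 to 1.6), with edgeR's adjusted p at 0.0607. That p was 0.0193 without knockout 1, at least 0.0897 without any other single library and 0.0233 among the Y-linked count libraries.

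Shmt2 (ENSMUSG00000025403.5, chromosome 10, 127517123 to 127522444, minus strand) had 198, 222 and 214 CPM in WT and 184, 144 and 192 CPM in knockout. Here the order was the opposite, with the highest knockout value just under the lowest of WT. The log2 fold change was -0.29 ± 0.163 (SE, 95% interval -0.67 to 0.099; edgeR adjusted p = 0.307). The log2 ratio of Shmt1 to Shmt2 counts was -0.195 ± 0.242 in WT and 1.12 ± 0.252 in knockout (SD, n = 3). This ratio separated the groups, from -0.42 to 0.063 in WT and from 0.89 to 1.39 in knockout, and the difference of 1.31 ± 0.202 (SE) had p = 0.1 in the exact permutation test, again the smallest possible (0.133 adjusted over 4 ratios). Shmt1 shares 184 exon bases with Smcr8 and Shmt2 shares 32 with Ndufa4l2, both on the opposite strand.

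The sequences before the start sites of Shmt1 and Shmt2, and of Gldc and Amt, are shown because the count ratio of each of these 2 pairs of partner enzymes separated the groups and each gene has 1 start site in the table. The ratio of Psat1 to Psph, described below with synthesis, separated them too, but Psat1 has 2 start sites there and is not shown. They are 250 bases each from RefSeq on GRCm38.p6, written 5′ to 3′ on the strand of the gene and ending at the base before the start site, and capitals mark matches to TGACG, the core of the cAMP response element, or its reverse complement.
Shmt1, chr11:60811266-60811515, minus strand: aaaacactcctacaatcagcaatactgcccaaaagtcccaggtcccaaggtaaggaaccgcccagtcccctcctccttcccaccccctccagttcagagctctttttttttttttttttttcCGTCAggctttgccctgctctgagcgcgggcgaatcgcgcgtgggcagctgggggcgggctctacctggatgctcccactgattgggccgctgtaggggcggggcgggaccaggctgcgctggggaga
Shmt2, chr10:127522445-127522694, minus strand: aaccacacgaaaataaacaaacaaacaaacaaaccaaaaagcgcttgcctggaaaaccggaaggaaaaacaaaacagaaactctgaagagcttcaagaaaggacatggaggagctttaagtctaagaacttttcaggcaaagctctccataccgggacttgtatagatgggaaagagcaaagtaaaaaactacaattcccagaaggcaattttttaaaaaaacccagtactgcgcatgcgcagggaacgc
Gldc, chr19:30175442-30175691, minus strand: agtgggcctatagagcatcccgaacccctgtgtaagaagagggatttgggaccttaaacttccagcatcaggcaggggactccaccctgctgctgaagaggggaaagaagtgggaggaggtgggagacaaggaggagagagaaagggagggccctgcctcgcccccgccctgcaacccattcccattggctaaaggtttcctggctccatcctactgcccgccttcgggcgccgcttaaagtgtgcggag
Amt, chr9:108296655-108296904, plus strand: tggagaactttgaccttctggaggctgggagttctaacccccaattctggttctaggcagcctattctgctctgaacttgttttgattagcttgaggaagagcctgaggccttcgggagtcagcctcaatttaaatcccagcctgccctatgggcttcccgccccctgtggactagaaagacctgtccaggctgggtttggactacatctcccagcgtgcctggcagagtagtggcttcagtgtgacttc
Shmt1 alone of the 4 held this core, as its reverse complement at position -128 from the RefSeq start. The Shmt1 stretch lies wholly within the gene span given above, which begins further upstream, and the Amt stretch reaches partly into its gene span. The RefSeq promoter table matched 7 of the 10 members in 8 windows of 300 bases (250 before and 50 after the start), and Sds, Sdsl and Tdh were not matched. Psph was the only other member with the core, at positions 8 and 39 after its start. The core was found on either strand in 20.8% of all 32851 windows of that length, the full element TGACGTCA (which contains the core) in 1.79% and in 0 member windows, and the composite element TGATGNAAN, bound by C/EBP and ATF factors, in 3.95% and in 0 member windows. G and C made up 60% of the Shmt1, 59.6% of the Gldc, 53.6% of the Amt and 40.8% of the Shmt2 stretch, against a median of 52.4% over the table.

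Serine synthesis genes were low in both groups. Phgdh, the phosphoglycerate dehydrogenase that opens the pathway (ENSMUSG00000053398.11, chromosome 3, 98313170 to 98339990, minus strand), had 6, 8 and 3 counts in WT and 12, 25 and 17 in knockout. That is 0.118, 0.154 and 0.0641 CPM against 0.206, 0.45 and 0.361 CPM. All knockout libraries lay above WT, but the whole WT group rests on a few reads and 3 counts are the detection floor. The log2 fold change was 1.56 ± 0.509 (SE, 95% interval 0.35 to 2.77; edgeR adjusted p = 0.119).

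Psat1, the phosphoserine aminotransferase (ENSMUSG00000024640.9, chromosome 19, 15904678 to 15947337, minus strand), had 0.789, 1.10 and 0.684 CPM in WT and 1.17, 4.48 and 2.08 CPM in knockout. Knockout 2 was the highest, and knockout 1 lay barely above WT 2. The log2 fold change was 1.58 ± 0.519 (SE, 95% interval 0.35 to 2.82; edgeR adjusted p = 0.12). Leaving out knockout 1 gave adjusted p-values of 0.0339 for Phgdh and 0.0179 for Psat1, and leaving out knockout 2 lowered the log2 fold change of Psat1 to 0.92.

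Psph, the phosphatase of the last step (ENSMUSG00000029446.14, chromosome 5, 129765558 to 129787449, minus strand), had 4.08, 4.90 and 4.92 CPM in WT and 3.62, 4.92 and 5.01 CPM in knockout. The groups overlapped, and in each the library with Xist counts was the lowest. Its log2 fold change was -0.04 ± 0.199 (SE, 95% interval -0.51 to 0.43; edgeR adjusted p = 0.921). The sign turned to 0.00801 under scaling by library size alone, so no direction is given for it. Psph shares 452 exon bases with Cct6a on the opposite strand, a far more abundant gene (knockout libraries 97.3 to 123 CPM, WT libraries 105 to 111). Whether Cct6a reads entered the Psph counts was not tested, and the sources used here do not give the use of strand. This limit also holds for the ratio of Psat1 to Psph and for the mean of the synthesis genes. Psat1 and Psph catalyse consecutive steps, and the log2 ratio of their counts was -2.40 ± 0.339 in WT and -0.995 ± 0.768 in knockout (SD, n = 3). The difference of 1.41 ± 0.485 (SE) had p = 0.1 in the exact permutation test and 0.133 adjusted over 4 ratios.

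Tdh, the threonine dehydrogenase that passes threonine to glycine and acetyl-CoA in mouse tissues that express it (ENSMUSG00000021953.14, chromosome 14, 63492347 to 63509092), had 0 counts in all 6 libraries. A count of 0 allows a level of up to 0.0515 to 0.0641 CPM per library. Its partner Gcat, which completes that route, was present, with 73.8, 78.0 and 84.2 CPM in WT and 58.3, 36.4 and 59.2 CPM in knockout (log2 fold change -0.62 ± 0.203, SE; edgeR adjusted p = 0.12). A second annotated Gcat gene overlaps it and had at most 6.15 CPM, and reads were divided between the 2. The sum of both rows was 80.0, 81.7 and 84.2 CPM in WT and 60.8, 39.8 and 60.0 CPM in knockout.

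**Figure D3:**
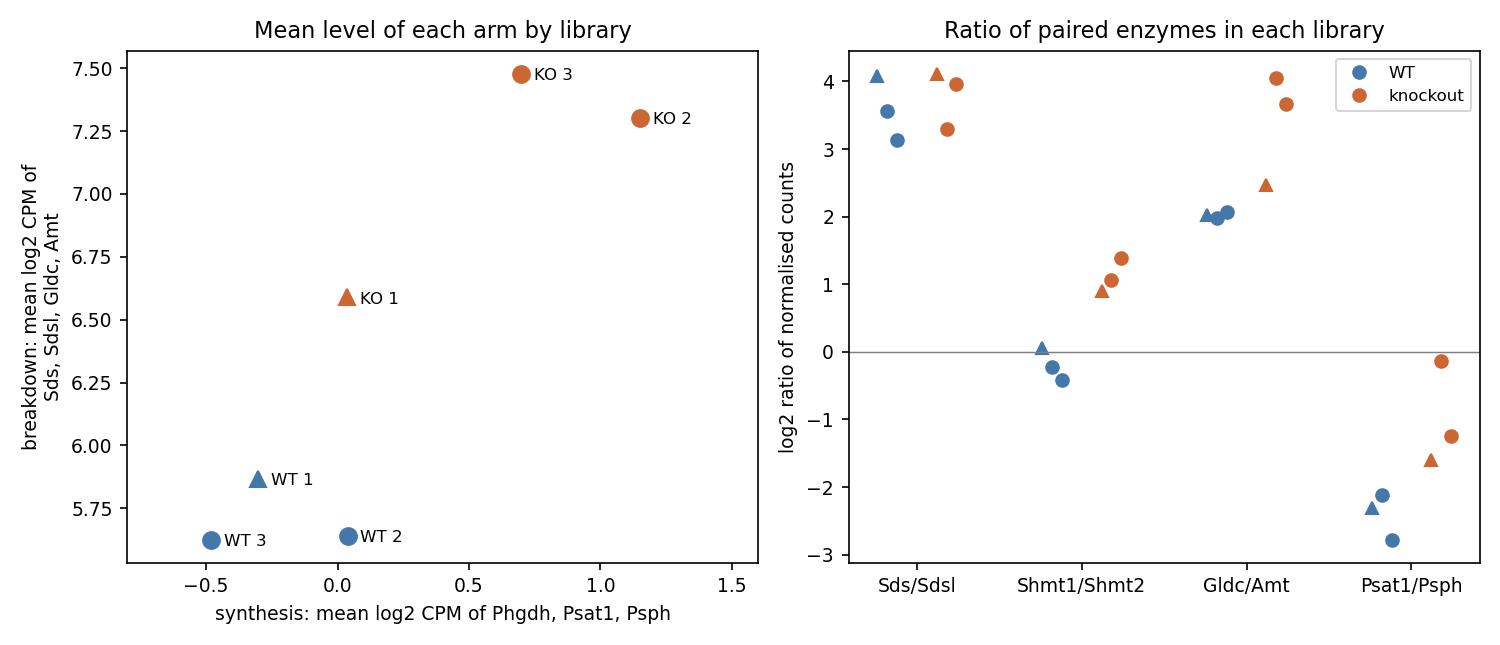
Left, the mean log2 CPM of the 4 detected breakdown genes against that of the 3 synthesis genes, 1 point per library. Right, the log2 ratio of normalised counts for 4 pairs of enzymes. Blue is WT, orange is knockout and triangles are replicate 1 of each group. On the left knockout libraries lie higher, from 6.59 to 7.48 against 5.63 to 5.87, while on the right Shmt1/Shmt2, Gldc/Amt and Psat1/Psph separate the groups and Sds/Sdsl does not.

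As mean levels, breakdown separated the groups and synthesis did not, but the difference between these arms overlapped between the groups. The mean log2 CPM of Sds, Sdsl, Gldc and Amt was 5.87, 5.64 and 5.63 in WT and 6.59, 7.30 and 7.48 in knockout. That of Phgdh, Psat1 and Psph was -0.30, 0.039 and -0.48 in WT and 0.036, 1.15 and 0.70 in knockout. The overlap in synthesis was between knockout 1 and WT 2, whose values were nearly equal. The difference of breakdown minus synthesis was 5.96 ± 0.31 in WT and 6.49 ± 0.318 in knockout (SD, n = 3), and the ranges overlapped, from 5.6 to 6.17 and from 6.15 to 6.78. With Tdh included, whose log2 CPM at 0 counts is set by the prior count of 2 alone, the difference was 3.88 ± 0.297 in WT and 4.13 ± 0.329 in knockout, also with overlap. The gap between the groups was then 0.253, against 0.535 without Tdh and 0.175 with Tdh and a prior count of 0.5. Of the 12 pairs of a tested breakdown and a tested synthesis gene, the breakdown gene had the larger log2 fold change in 7 and the smaller in 5. The estimates for Sds and Sdsl exceeded those of all 3 synthesis genes, by 0.96 to 2.61, and that of Amt lay below all 3. These orderings carry no test. By library, the difference of the 2 genes lay higher in knockout without overlap for 5 of the 12 pairs and lower for 1, Amt with Phgdh. It overlapped for the rest, among them Sds with Psat1, Sdsl with Phgdh, and Amt with Psat1 and Psph.

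Per kilobase of merged exon the order in WT was Shmt2 at 68.1 ± 3.93, Sds at 53.0 ± 18.9, Shmt1 at 47.9 ± 6.07, Gldc at 36.6 ± 0.253, Amt at 22.4 ± 0.817, Sdsl at 4.77 ± 0.429, Psph at 1.07 ± 0.11, Psat1 at 0.202 ± 0.0507 and Phgdh at 0.0452 ± 0.0182 CPM per kilobase (SD, n = 3). Neighbours overlapped between Shmt2 and Sds and between Sds and Shmt1 and were otherwise apart. In knockout Sds came first at 315 ± 140, above Shmt1 at 98.5 ± 27.3, Gldc at 80.7 ± 23.4, Shmt2 at 55.8 ± 8.24, Sdsl at 27.8 ± 16.4, Amt at 19.4 ± 6.49, Psph at 1.04 ± 0.179, Psat1 at 0.606 ± 0.403 and Phgdh at 0.136 ± 0.0497 CPM per kilobase. There Sds was clear of all others, and the neighbours Shmt1 and Gldc, Gldc and Shmt2, Sdsl and Amt, and Psph and Psat1 overlapped. The synthesis genes were the lowest detected members in both groups.

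Likeness of pattern was measured as the Euclidean distance between log2 CPM values of the 6 libraries, each gene centred on its own mean, so that 0 means the same profile. Within the set the nearest neighbours were mutual for Sds and Sdsl (0.932), Shmt1 and Gldc (0.595), Phgdh and Psat1 (0.765) and Shmt2 and Amt (0.49), and Psph was nearest to Shmt2 (0.648). Among all tested genes the 5 nearest to Sds were Gm36172 (0.361), Gm28068 (0.372), Abcg5 (0.413), Mat1a (0.416) and Sult1a1 (0.591), with log2 fold changes of 2.58, 2.67, 2.30, 2.38 and 2.66. Abcg5 encodes a sterol transporter and Mat1a the liver's methionine adenosyltransferase. These genes were picked for a profile close to that of Sds in the same libraries, so their fold changes follow from the choice and carry no test. Those nearest to Psat1 were Sat1 (0.446), Ctsl (0.497), Zfas1 (0.513), Bst2 (0.527) and Gm14494 (0.547), with log2 fold changes from 1.22 to 1.66 that likewise follow from the choice.

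A list of 45 other genes that handle serine, glycine, threonine or one-carbon units was described beside the members. All 45 passed the filter. Of these, 5 passed the threshold as higher, 1 passed as lower and 39 did not pass. Over all tested genes 2.15% were called higher and 1.22% lower. The median log2 fold change of the list was 0.334.

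**Figure D4:**
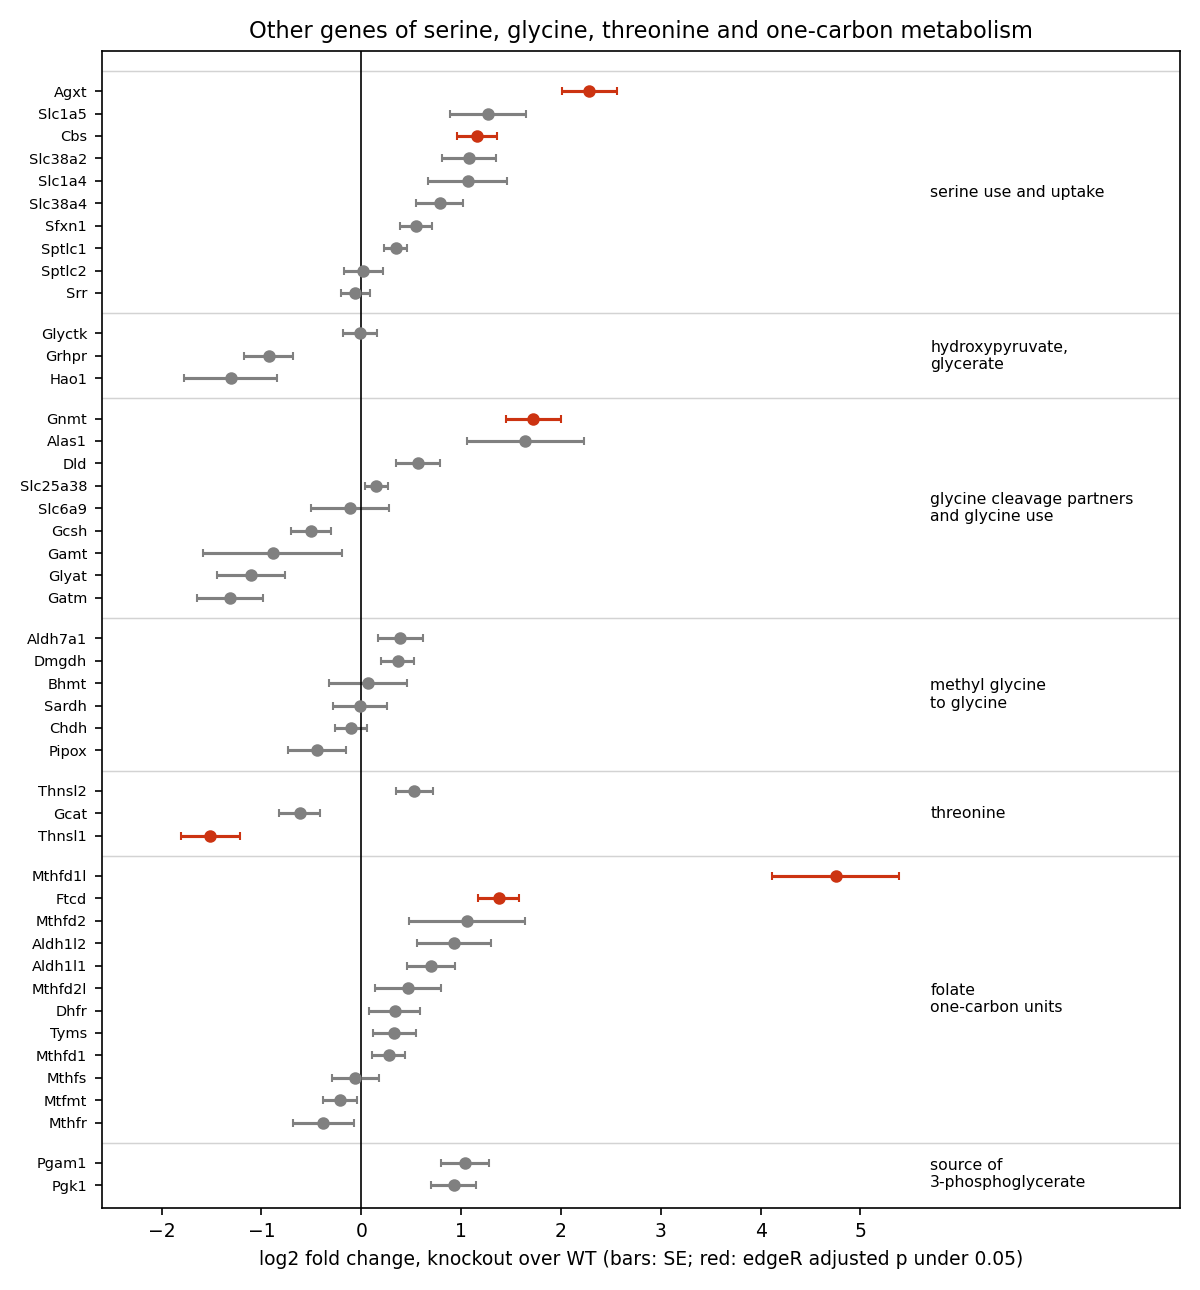
Log2 fold change, knockout over WT, of 45 genes around the 10 enzymes, grouped by role. Points are edgeR estimates with their SE, and red marks an adjusted p-value under 0.05. Mthfd1l lies farthest to the right at 4.75, Thnsl1 is the one red point left of 0 at -1.51, and the 9 genes around glycine cleavage and use spread to both sides, 2 above and 3 below WT without overlap (16.9% and 15.5% of all tested genes).

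Mthfd1l, which releases formate from the mitochondrial folate pathway, had the largest change of the list. It stood at 0.71, 0.636 and 0.556 CPM in WT and at 5.35, 29.0 and 17.2 CPM in knockout, and rose by 4.75 ± 0.636 on the log2 scale (SE, edgeR adjusted p = 0.0212). Of the other enzymes of that pathway, Mthfd2, Mthfd2l and Aldh1l2 were low and did not pass. Mthfd2 stood at 1.43 ± 0.714 and 2.96 ± 2.04 CPM (edgeR adjusted p = 0.295, SD, n = 3). Mthfd2l stood at 0.82 ± 0.206 CPM in WT and 1.14 ± 0.235 CPM in knockout (edgeR adjusted p = 0.403). Aldh1l2 stood at 0.366 ± 0.132 and 0.701 ± 0.0752 CPM (edgeR adjusted p = 0.172). The mitochondrial member Shmt2 was not low, at 211.7 ± 12.2 CPM in WT and 173.5 ± 25.6 CPM in knockout. Ftcd, which feeds one-carbon units from histidine into folate, had 303, 367 and 332 CPM in WT and 690, 878 and 1029 CPM in knockout, a log2 fold change of 1.38 ± 0.209 (SE, edgeR adjusted p = 0.0281). Of the 12 folate genes 2 passed the threshold as higher and 10 did not pass, where 2.15% of all tested genes were called higher.

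Among genes of serine use and uptake, 2 of 10 passed the threshold as higher, against 2.15% of all tested genes. The log2 fold change was positive for 9 and negative for 1. Knockout lay above WT without overlap for 7 and below for 0, against 16.9% and 15.5% of all tested genes. Agxt, which can turn glyoxylate into glycine and serine into hydroxypyruvate, had 386, 290 and 248 CPM in WT and 1219, 1380 and 1905 CPM in knockout (log2 fold change 2.29 ± 0.272, SE; edgeR adjusted p = 0.0161). Cbs, which joins serine to homocysteine, had 654, 539 and 516 CPM in WT and 1260, 1105 and 1447 CPM in knockout (1.16 ± 0.2, adjusted p = 0.0372). Gnmt, which methylates glycine to sarcosine, was the 1 of 9 glycine genes that passed the threshold. It rose from 993, 1116 and 1020 CPM to 2682, 2965 and 4699 CPM (1.73 ± 0.277, adjusted p = 0.032). Thnsl1, named for its likeness to bacterial threonine synthase, fell from 5.44, 3.74 and 3.93 CPM to 2.08, 1.37 and 1.15 CPM (-1.51 ± 0.3, adjusted p = 0.048). For all 6 genes the knockout and WT libraries did not overlap, but the genes were named for passing the threshold in these same libraries. Over all tested genes 32.4% did not overlap.

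These 6 calls varied with single libraries too, as did the number of all genes called. Stk11 itself, at an edgeR adjusted p of 0.0167 over 6 libraries, missed the threshold in 4 of the 6 refits with 1 library left out (0.0607 to 0.104). Its log2 fold change stayed between -2.37 and -1.87 in these refits. Leaving out knockout 1 kept each of the 6 calls, with adjusted p-values from 0.00055 to 0.00888. Cbs, Gnmt, Ftcd and Thnsl1 missed the threshold without any one of the other 5 libraries (edgeR adjusted p from 0.0636 to 0.21), Mthfd1l without knockout 3, WT 1, WT 2 or WT 3 (0.055 to 0.138), and Agxt without knockout 3, WT 2 or WT 3 (0.0613 to 0.121). Mthfd1l also missed the threshold with limma voom (adjusted p = 0.0783), and Thnsl1 with edgeR under library size scaling (0.0636) and with a minimum mean of 1 CPM (0.0534). Among the Y-linked count libraries 22 of the 45 genes passed, 15 as higher and 7 as lower, where 33.3% of all tested genes did.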

How the data were processed

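Liver RNA was sequenced in 6 mice, 3 knockout and 3 WT. For 55450 genes the authors supplied expected counts, which RSEM estimates from the reads. The submitters' processing notes name bcl2fastq 2.17, cutadapt 1.18, STAR 2.7.0f, RSEM 1.3.1 and build mm9. All 55450 gene identifiers, with versions, were found in GENCODE M21 on GRCm38, so the build named does not match the identifiers, and positions and exon lengths were taken from GENCODE M21. The use of strand is not given in the sources used here. Fractional values made up 4.93% to 5.47% of each library.

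Group and replicate came from the sample titles, and each column was matched by the name in its sample's description. Expected counts were rounded. Genes were kept by filterByExpr of edgeR 4.0.16 (14539 genes), scaled by TMM and compared in R 4.3.3 by the quasi-likelihood test, on group alone, with Benjamini-Hochberg adjustment over all tested genes and a threshold of 0.05. SE is the log2 fold change divided by the square root of F, and 95% intervals use the degrees of freedom of the test. Log2 CPM values use a prior count of 2. A floor of 3 counts equals 0.0515 to 0.0641 CPM, for counting error only. Permutation tests were exact. The fits were tested on simulated data. Alternatives were limma voom (limma 3.58.1), DESeq2 1.42.0, other scaling and filters, a replicate block, left-out libraries and Xist state. Where 2 rows had the same symbol (Gcat), the row with more counts was used.

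The members and lists were chosen with earlier results of these data known. Named genes were all members, Stk11, the list genes past the threshold, Gcsh, Dld, Gcat, Mthfd2 and Aldh1l2 whatever their values, the 5 genes nearest to Sds and to Psat1, and cell type markers. Genes overlapping a member, and Alas1, Hao1, Gamt, Glyat and Mthfd2l, were named after their values were seen.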

Additional observations from a re-analysis of the deposited data

Results flagged for a closer look

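The knockout-to-WT difference in the Xist pair was set against that in the 4 libraries that have Y-linked counts, as an interaction in edgeR. The pair is 1 library against 1, so the spread comes from the other 4 alone and the pair is assumed to vary like them. It had an adjusted p-value under 0.05 for 2.9% of all tested genes. The interaction was -2.16 ± 0.28 on the log2 scale for Sds (SE, adjusted p = 0.0234), with a log2 fold change of 3.22 among those 4 and a log2 ratio of 1.06 in the Xist pair. For Sdsl it was -1.94 ± 0.332 (adjusted p = 0.0493), with 2.97 and 1.03. For Gldc it was -0.73 ± 0.294 and did not pass (adjusted p = 0.238). Alas1, which makes the first haem precursor from glycine and was named after its values were seen, had -3.20 ± 0.256 (adjusted p = 0.0073). Sult1a1 had -3.04 and Abcg5 -1.86, but both were picked for a profile close to that of Sds in the same libraries, so these values follow from the choice and support nothing. Glyat, another glycine gene of the list that passed, had 1.468 ± 0.24 and was also named after its values were seen. Stk11 itself had a log2 fold change of -2.379 among the 4 libraries and a log2 ratio of -1.576 in the Xist pair. Its interaction of 0.797 ± 0.245 did not pass. Whether the Stk11 level of knockout 1 bears on the other genes was not tested. An effect of Xist state and of those mice cannot be told apart.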

How the results depend on the processing

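Direction held under all 14 refits for Sds, Sdsl, Gldc, Shmt1, Shmt2 and Psat1 and all 13 for Phgdh, which the filter of 1 CPM removed. Psph turned to 0.00801 under library size scaling and 0.0104 in the 4 libraries that have Y-linked counts, and ran from -0.124 to 0.093 with single libraries left out. Amt ran from -0.46 to 0.035 and was 0.175 in the pair with Xist counts. Members called (2) became 4 with library size scaling, 5 with DESeq2, 1 with limma voom, 4 with no filter, 6 in these 4 libraries and 0 to 6 with single libraries left out. Other list genes called (6) became 18 with DESeq2, 22 in the 4 libraries, 11 with Xist state as a term and 0 to 22 with single libraries left out. All genes called (490) became 2252 with DESeq2, 771 with no filter, 4847 in the 4 libraries, 1504 with Xist state as a term and 6 to 4473 with single libraries left out, with 6 without WT 2, 20 without WT 3, 35 without knockout 3, 86 without knockout 2, 262 without WT 1 and 4473 without knockout 1. The cause was not tested. Library size scaling moved the share of calls that were higher from 63.9% to 74.4%. The fit with the replicate block called 0 members and 0 other list genes, against 6 and 20 at an unadjusted p under 0.05, and 105 genes in all. No label pairs the same-numbered mice. Their deviations correlated at 0.178, 0.0443 and 0.0679, and 2 of 6 libraries correlated best with their own number. With 3 libraries a group these values cannot decide whether the mice were paired. The mean of breakdown minus synthesis differed by 0.253 between the groups (log2, Tdh included, no test, ranges overlapping), with 0.0816 to 0.443 when single libraries were left out, 0.175 with a prior count of 0.5 and 0.535 without Tdh, alternatives that were chosen after seeing the data. Levels per kilobase change no fold. The low counts of Phgdh and Psat1 limit their precision.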

Other observations

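Some genes around glycine differed between the libraries of a group as much as between groups. They were named after their values were seen. Alas1 had 227, 95 and 88.2 CPM in WT 1 to 3 and 153, 583 and 546 CPM in knockout 1 to 3 (log2 fold change 1.64 ± 0.586, SE; edgeR adjusted p = 0.141). The Y-linked count libraries alone gave 2.62 (adjusted p = 0.000582), and the Xist pair had a log2 ratio of -0.57. Hao1, which oxidises glycolate to glyoxylate, had 159, 332 and 335 CPM in WT and 171, 53.8 and 109 CPM in knockout, with -2.04 in the 4 libraries (adjusted p = 0.00975) and 0.10 in the pair. Gamt, of creatine synthesis, had 113, 93.9 and 82.2 CPM in WT and 111, 12.4 and 32.9 CPM in knockout, with -1.97 (adjusted p = 0.0226) and -0.026. In all 3 genes knockout 1 lay nearer to WT 1 than to the other knockout libraries. The interaction of group with Xist state was 2.135 ± 0.573 (SE) for Hao1 and 1.935 ± 0.738 for Gamt, and neither passed the threshold.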
